A study of Homo sapiens with 6 samples.

Results

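The kinesin genes are the members described here, chosen as every row of the count table whose symbol is KIF followed by a number and at most a letter A to C, or KIFC followed by a digit. There were 42 of them among 55882 rows, and 38 had enough counts to be tested. The libraries came from DIvA cells, a derivative of the human osteosarcoma line U2OS in which 4-hydroxytamoxifen (4-OHT) sends the DNA-cutting enzyme AsiSI into the nucleus. The 3 p53 WT libraries have wild-type p53, the 3 p53 KO libraries have p53 knocked out, and both groups received 300 nM 4-OHT for 5 h. No untreated library is analysed here, so each difference is one of genotype among treated cells. The labels do not say whether replicates were separate cultures or how many knockout clones were used, so the p-values weigh the groups against the spread of these libraries only.

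Kinesins are motor proteins that use ATP to act on microtubules. Mitotic kinesins build and shorten the spindle, move chromosomes and organise the midzone for cytokinesis, and their genes are known to peak late in the cell cycle. Transport kinesins carry vesicles, mitochondria and messenger RNA along microtubules, and several of them are known chiefly from neurons. In cells with p53, induction of CDKN1A is known to engage the DREAM complex, which lowers late cell cycle genes through a promoter element called the cell cycle genes homology region (CHR). By role the members fell into 14 mitotic, 17 transport, 6 cilium or signalling and 5 other kinesins.

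The core of the CHR reads TTTGAA, with TTTAAA as a known variant. Windows around these letters are shown because most mitotic and few transport members carry them. RefSeq promoters (GRCh38.p14, 250 bases before to 50 after an annotated start) were matched for 34 of the 42 members. Searched on both strands, TTTGAA or TTTAAA was in the promoter of 12 of 14 matched mitotic and 2 of 12 matched transport kinesins (KIF5B and KIF16B), and in 0 of 4 and 0 of 4 of the other roles. Of all 27305 symbols in the table, 27.9% held either and 18.2% held TTTGAA. A match describes letters in this window and is no evidence of binding. Windows of 30 bases are shown on the strand of the gene for KIF23 and KIF20A, for the spindle motors KIF11 and KIF15, for the KIF4 copies and for the transport member KIF5B, chosen after the matches were seen, with the match in capitals; TTCAAA is TTTGAA read on the other strand.
KIF23: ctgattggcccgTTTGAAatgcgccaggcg
KIF20A: cgcagcgcgtaaTTTAAAatattgtatctg
KIF11: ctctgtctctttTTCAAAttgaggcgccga
KIF15: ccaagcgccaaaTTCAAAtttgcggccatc
KIF4A: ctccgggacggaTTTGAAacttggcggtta
KIF4B: ctctgggagggaTTTGAAacttggcggtta
KIF5B: agtgcagtaaaaTTTGAAtctgcgaccccg

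The windows lie at chr15:69414282-69414311 (KIF23, plus strand), chr5:138179059-138179088 (KIF20A, plus), chr10:92593090-92593119 (KIF11, plus), chr3:44761747-44761776 (KIF15, plus), chrX:70290058-70290087 (KIF4A, plus), chr5:155013746-155013775 (KIF4B, plus) and chr10:32056548-32056577 (KIF5B, minus). The match begins 55, 41, 28, 35 and 34 bases before the start in KIF23, KIF20A, KIF11, KIF15 and KIF4A, and 140 bases before it in KIF5B, the transport member. In KIF4B the match begins at base 3 from the annotated start. KIF23 has a further match, of TTTAAA, 211 bases before its start. Among the mitotic members not shown, matches began 10 and 3 bases before the start in KIF18A and KIF2C, at bases 1, 2 and 4 from it in KIF14, KIF18B and KIFC1, and at bases 24 and 30 in KIF20B, and KIF14 has a further match 198 bases before its start. KIF4B is known as a copy of KIF4A, and their windows differ at 2 of 30 bases. Reads of the pair may therefore be hard to assign, and both values are uncertain as single genes. KIF22, and KIF2B at 0 counts, were the mitotic members without either match.

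Total counts ranged from 20393909 to 79767519 per library, and 0 counts in a library leave room for a level of up to 3 counts, or 0.0381 to 0.150 CPM (the count divided by library size, after scaling for composition). The p53 target CDKN1A had a log2 fold change of -3.56, and MDM2 had -1.93, with all 3 p53 KO libraries below all 3 p53 WT libraries. Mitochondrially encoded genes took 4.79% to 4.92% of counts in p53 WT and 5.11% to 5.43% in p53 KO. Of 6 osteosarcoma and mesenchymal markers, VIM averaged 3333 and 1618 CPM, SPARC 1224 and 896 CPM, COL1A1 688 and 930 CPM, RUNX2 11.7 and 7.26 CPM, ALPL 7.49 and 1.66 CPM and COL1A2 0.315 and 0.494 CPM in p53 WT and p53 KO. LYZ of the leukocyte list was at 0 in every library. p53 KO replicate 3, the shallowest library, was the lowest of its group for 24 of 38 tested kinesins, and values without it are given where they change a call.

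Kinesins as a family were called at a share near that of all genes. At an adjusted p under 0.05 (edgeR quasi-likelihood test over all genes), 8 of 38 tested kinesins were higher and 4 were lower in p53 KO, or 31.6%, where 26.5% of all 22352 genes were called, 12.1% higher and 14.4% lower. The groups did not overlap for 18 of 38 members, where they did not overlap for 40.8% of all genes. Among mitotic kinesins 1 rose and 1 fell of 13 tested (15.4%), and among transport kinesins 6 rose and 3 fell of 17 (52.9%). The median log2 fold change was 0.04 for mitotic and 0.31 for transport kinesins, beside 0.01 for all genes. The transport median was 0.16 without p53 KO replicate 1, 0.19 without p53 KO replicate 2 and 0.19 with the median of neighbouring genes taken off, and the mitotic median ranged from 0.0007 to 0.0615 with 1 library left out. No mitotic member and 7 of 17 transport members differed by over 1.5-fold, where 7983 of all 22352 genes did. Without p53 WT replicate 2 the kinesins called higher were 4 and the transport members among them 3. Calls over all genes fell as well, to 1872 higher from 2697 with every library. The counts of kinesins describe the members, and the difference between the roles was not tested.

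**Figure D1:**
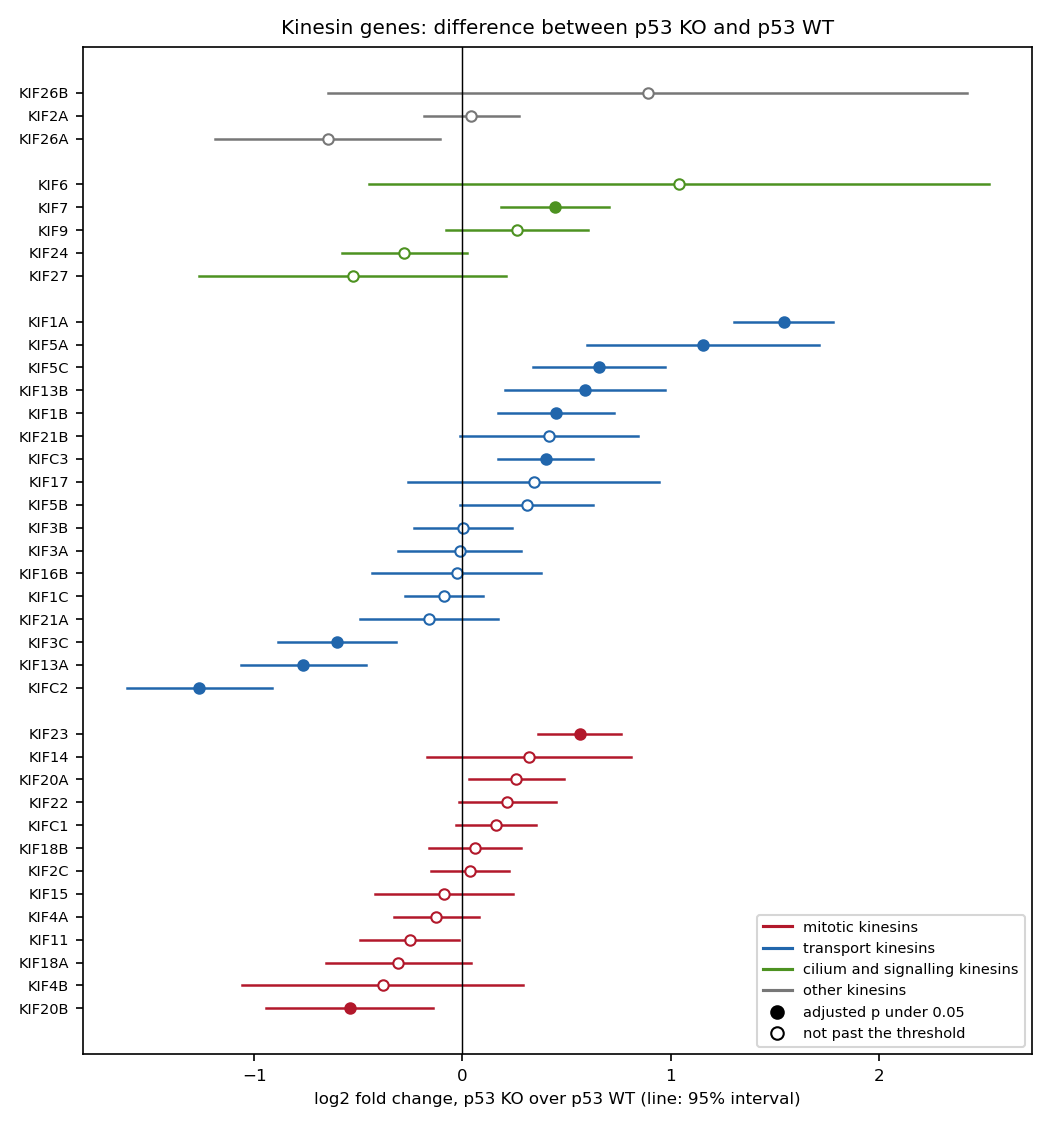
Log2 fold change of the 38 tested kinesin genes, p53 KO over p53 WT, by role; the line through each point is its 95% interval and filled points have an adjusted p under 0.05. Mitotic kinesins (red) lie between -0.54 and 0.56, and transport kinesins (blue) between -1.27 and 1.54.

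Summed over its members, the mitotic role reached 1347, 1443 and 1416 CPM in p53 WT and 1550, 1568 and 1394 CPM in p53 KO. The transport role summed to 1105, 1212 and 1218 CPM in p53 WT and to 1403, 1460 and 1168 CPM in p53 KO. For both sums replicates 1 and 2 of p53 KO were above every p53 WT library and replicate 3 was within their range. The ratio of the mitotic to the transport sum was 1.19 ± 0.0280 in p53 WT and 1.12 ± 0.0617 in p53 KO (SD, n = 3), and the groups overlapped. These sums are not per length, so the ratio does not rank the roles by level. The largest transport members were KIF5B and KIF1C, neither of them called. KIF5B averaged 306 and 379 CPM and KIF1C 255 and 240 CPM in p53 WT and p53 KO. In p53 KO replicate 3 KIF5B had 274 CPM.

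Levels can be compared between genes only per length, here as CPM per kilobase of the principal GENCODE 29 transcript. On that scale mitotic members filled most of the top of the family in p53 WT. KIF2C had the highest level, 74.1 ± 2.63 CPM per kb (SD, n = 3), followed by KIF23 at 56.5 ± 2.87, KIF5B at 52.1 ± 5.39 and KIFC1 at 49.6 ± 1.71 CPM per kb. KIF2C was above every other member in each p53 WT library, KIF23 and KIF5B overlapped, KIF5B and KIFC1 overlapped, and every KIF23 library was above every KIFC1 library. In p53 KO the order of the first pair changed, with KIF23 at 83.6 ± 5.47 and KIF2C at 76.0 ± 1.85 CPM per kb. KIF1A moved furthest up the order, from place 26 to place 14, and KIFC2 and KIF3C each moved 7 places down, to places 28 and 23.

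**Figure D2:**
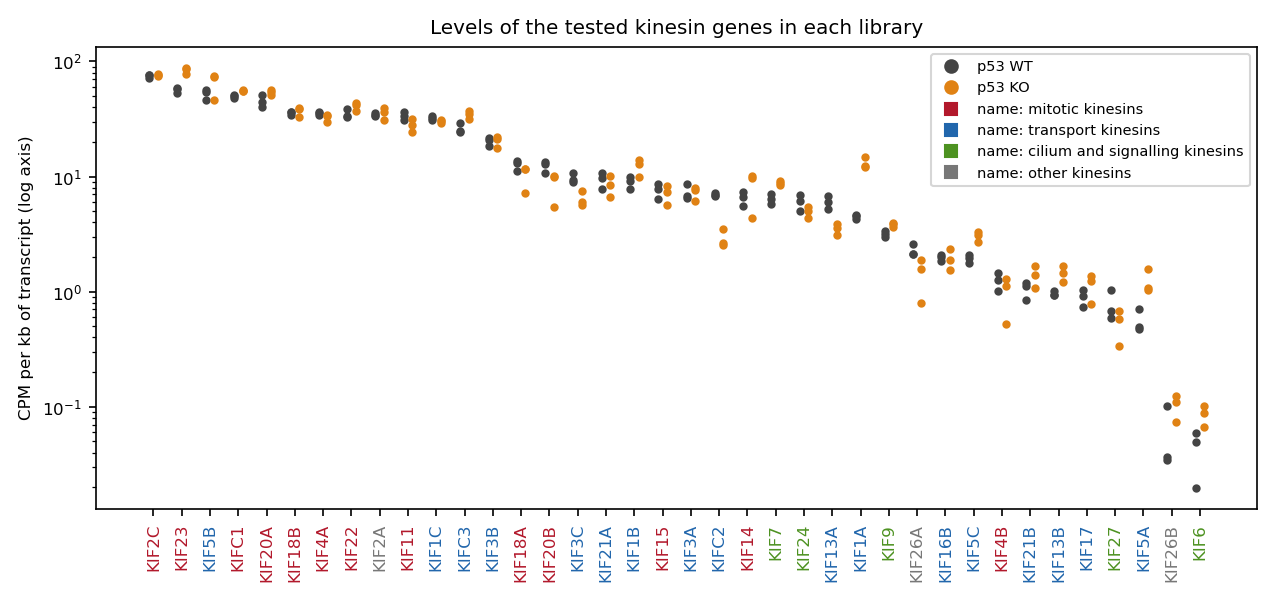
CPM per kb of transcript (log axis) of the 38 tested kinesin genes in each library, ordered by the p53 WT mean; grey points are p53 WT, orange points p53 KO, and the colour of a name gives its role. Levels span from 74.1 CPM per kb for KIF2C down to 0.0425 CPM per kb for KIF6 in p53 WT.

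KIF23, the motor subunit of centralspindlin at the midzone, was the mitotic kinesin that rose. It had 199, 219 and 214 CPM in p53 WT and 326, 320 and 288 CPM in p53 KO. Every p53 KO library was above every p53 WT library, and KIF23 was 1.48-fold higher (log2 fold change 0.56, SE 0.09, adjusted p = 0.000435 by edgeR). The median log2 fold change of its 50 nearest expressed genes on chromosome 15 was 0.15, and KIF23 kept its call with that local median taken off (0.42, adjusted p = 0.00552 by edgeR). GENCODE places 231 exon bases of an antisense RNA opposite KIF23.

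KIF20B, a kinesin of late mitosis and cytokinesis, was the mitotic member that fell. It had 68.1, 84.4 and 81.3 CPM in p53 WT and 61.9, 63.9 and 33.9 CPM in p53 KO, so that p53 KO replicate 3 lay far below the other two. Its log2 fold change was -0.54 (SE 0.19, adjusted p = 0.0449 by edgeR), and its call was lost without p53 KO replicate 3 (-0.30), p53 WT replicate 2 (-0.48) or p53 WT replicate 3 (-0.52). Its neighbours on chromosome 10 had a median of -0.52, and with that taken off KIF20B had -0.02 (adjusted p = 0.958 by edgeR). Its close relative KIF20A, needed at the midzone to relocate the chromosomal passenger complex, had 127, 142 and 164 CPM in p53 WT and 164, 182 and 172 CPM in p53 KO. The ranges of KIF20A were separated by a narrow gap. Its log2 fold change of 0.26 (95% interval 0.03 to 0.49) did not pass (adjusted p = 0.0918 by edgeR), but passed without p53 WT replicate 3 (0.35). GENCODE places 132 exon bases of BRD8 and 68 of CDC23 opposite KIF20A.

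The motors that build the bipolar spindle had small differences. KIF11 (Eg5), which slides antiparallel microtubules apart, had 149, 175 and 163 CPM in p53 WT and 153, 136 and 119 CPM in p53 KO, with overlapping groups. Its log2 fold change was -0.25 (95% interval -0.49 to -0.02, adjusted p = 0.113 by edgeR), and its neighbours on chromosome 10 had a median of -0.46. KIF15, which can share the work of KIF11, had -0.09 (95% interval -0.42 to 0.24). KIFC1 (HSET), the minus-end motor that clusters spindle poles, had 138, 129 and 136 CPM against 149, 152 and 149 CPM, a separated but small difference of 0.16 on the log2 scale (adjusted p = 0.217 by edgeR).

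Motors at chromosomes and microtubule ends did not pass either. KIF2C (MCAK), which depolymerises microtubules at kinetochores, had 218, 217 and 205 CPM in p53 WT and 223, 221 and 213 CPM in p53 KO. The groups overlapped, and the 95% interval of its log2 fold change was -0.15 to 0.22. Its neighbours on chromosome 1 were lower, with a median of -0.38. With that taken off KIF2C was called higher (0.42, adjusted p = 0.00374 by edgeR), where it had 0.04 as measured. That p takes the median as a fixed value, and most of the 0.42 is the amount taken off. KIF4A, a chromosome-bound motor, had 149, 159 and 154 CPM against 145, 149 and 130 CPM. Its groups touched at 149 CPM, and its log2 fold change was -0.12 (95% interval -0.33 to 0.08). KIF4B, its copy, averaged 5.44 CPM in p53 WT and 4.24 CPM in p53 KO, with a log2 fold change of -0.38.

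The remaining mitotic members did not pass. KIF18B, which destabilises astral microtubules, had 0.06, and KIF22, a motor of chromosome arms, had 0.22 on the log2 scale. KIF18A, which damps chromosome movement at metaphase, had -0.31 (95% interval -0.66 to 0.04). GENCODE places 61 exon bases of METTL15 opposite KIF18A, and METTL15 was lower (-0.73, adjusted p = 0.00977 by edgeR). KIF14, which works with citron kinase in cytokinesis, had 69.9 and 73.3 CPM in p53 KO replicates 1 and 2 but 32.0 CPM in replicate 3, against 40.0 to 52.9 CPM in p53 WT. Its log2 fold change was 0.32 with all libraries and 0.62 without p53 KO replicate 3, when it passed. For 8 of the 13 tested mitotic kinesins the 95% interval lay within 1.5-fold in either direction, and for 12 within 2-fold, KIF4B being the exception.

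Partners of these motors on the spindle were called mainly higher. Of 18 spindle and midzone partners 7 were higher and 1 lower in p53 KO (44.4% called, beside 26.5% of all genes), with a median log2 fold change of 0.22. PRC1, the microtubule bundler of the midzone, had 117 ± 10.8 CPM in p53 WT and 258 ± 12.7 CPM in p53 KO (SD, n = 3) and rose by 1.14 on the log2 scale. PLK1, the kinase that recruits midzone proteins, and AURKA, the spindle pole kinase, rose by 0.69 and 0.59 on the log2 scale, and NUSAP1, a microtubule-bundling protein, by 0.56. GTSE1, named after its values were seen as the member that fell, had -0.58, and -0.01 with the local median taken off. With the local median taken off 5 partners were higher and 0 lower, and 4 of the 7 higher kept their call. Of all 22352 genes, of which 17141 had a local median to take off, 2118 were then higher and 2289 lower. Of the 2697 higher 1760 kept their call. PRC1 then had 0.60, PLK1 0.49 and NUSAP1 0.43, while AURKA had 0.25 and lost its call (adjusted p = 0.0656 by edgeR). RACGAP1, the partner of KIF23 within centralspindlin and also named after its values were seen, had 0.24 (adjusted p = 0.0967 by edgeR). The 6 proliferation markers summed to 1914 to 2336 CPM in p53 WT and 2250 to 2810 CPM in p53 KO. CCNB1 rose by 0.73 and CCNA2 by 0.30 on the log2 scale. MKI67, TOP2A, PCNA and CDK1 did not pass. With the local median taken off CCNB1 kept its call (0.72), CCNA2 lost it (0.12), and PCNA and CDK1 were called higher (0.30 and 0.36, CDK1 from -0.11). The part of proliferation in the kinesin values was not tested, and in bulk samples fewer dividing cells and less RNA per cell cannot be told apart.

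Transport kinesins held the largest differences, and the largest of all was in KIF1A, the carrier of synaptic vesicle precursors in neurons. KIF1A had 38.5, 41.8 and 40.7 CPM in p53 WT and 109, 133 and 111 CPM in p53 KO. All p53 KO libraries were above all p53 WT libraries, 2.91-fold on average (log2 fold change 1.54, SE 0.11, adjusted p = 3.17e-07 by edgeR). Its neighbours on chromosome 2 had a median of -0.14. KIF1B, which carries mitochondria and vesicle precursors, had 83.9, 97.9 and 106 CPM against 138, 148 and 106 CPM, and its groups met at replicate 3. In GENCODE KIF1B shares 293 exon bases with the RNA gene RN7SL731P on the same strand. KIF1B rose by 0.45 on the log2 scale (adjusted p = 0.0196 by edgeR), but missed the threshold without p53 WT replicate 1 (0.35) or 2 (0.46) or p53 KO replicate 1 (0.41) or 2 (0.35). KIF1C, the widely expressed member of the trio, had 253, 266 and 246 CPM against 241, 233 and 244 CPM. Its groups were apart by a small gap, and its log2 fold change of -0.09 (95% interval -0.28 to 0.10) did not pass.

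Kinesin-1, the heavy chain of conventional kinesin, is encoded by KIF5A, KIF5B and KIF5C, of which KIF5B is ubiquitous and the others are known from neurons. KIF5A had 2.90, 2.77 and 4.11 CPM in p53 WT and 6.30, 9.11 and 6.07 CPM in p53 KO. The groups were separate, and KIF5A rose 2.23-fold (log2 fold change 1.15, SE 0.26, adjusted p = 0.00437 by edgeR). KIF5C had 12.2, 14.3 and 13.5 CPM against 21.5, 22.7 and 18.9 CPM, also separate, and rose 1.58-fold (log2 fold change 0.66, SE 0.15, adjusted p = 0.00421 by edgeR). KIF5B had 270, 320 and 329 CPM in p53 WT and 427, 437 and 274 CPM in p53 KO, with p53 KO replicate 3 among the p53 WT values. It did not pass with all libraries (0.31, adjusted p = 0.153 by edgeR) and passed without p53 KO replicate 3 (0.51).

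The KIF13 pair, motors of endosomal and membrane cargo, differed in opposite directions. KIF13A had 31.0, 35.4 and 40.5 CPM in p53 WT and 21.2, 22.9 and 18.6 CPM in p53 KO, with no overlap, and fell by 0.76 on the log2 scale (SE 0.14, adjusted p = 0.000945 by edgeR). KIF13B had 8.21, 8.12 and 8.88 CPM against 14.5, 12.6 and 10.6 CPM, again with no overlap, and rose by 0.59 (SE 0.18, adjusted p = 0.0245 by edgeR). The call of KIF13A held in each of the 16 other settings, while that of KIF13B was lost when any 1 library except p53 KO replicate 3 was left out (0.47 to 0.62). The median of their neighbours was 0.05 for KIF13A and -0.0017 for KIF13B. GENCODE places 585 and 279 exon bases of antisense RNAs opposite KIF13B.

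Among the heterotrimeric kinesin-2 genes, KIF3A and KIF3B, which pair to serve transport and cilium assembly, had log2 fold changes of -0.01 (95% interval -0.31 to 0.28) and 0.0025 (95% interval -0.23 to 0.24). KIF3A had 43.0, 54.2 and 41.4 CPM against 48.5, 50.4 and 38.5 CPM, with overlapping groups. KIF3C, the alternative partner of KIF3A, had 50.3, 48.1 and 57.8 CPM in p53 WT and 32.3, 40.1 and 30.3 CPM in p53 KO. KIF3C fell by 0.60 on the log2 scale (SE 0.13, adjusted p = 0.00346 by edgeR), but its neighbours on chromosome 2 had a median of -0.34, and with that taken off it had -0.26 (adjusted p = 0.202 by edgeR). KIFAP3, the subunit that completes the kinesin-2 motor and named after its values were seen, was higher by 0.40 on the log2 scale (adjusted p = 0.0398 by edgeR) and had a nearly equal 0.39 with the local median taken off, where it missed the threshold (adjusted p = 0.0569 by edgeR).

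**Figure D3:**
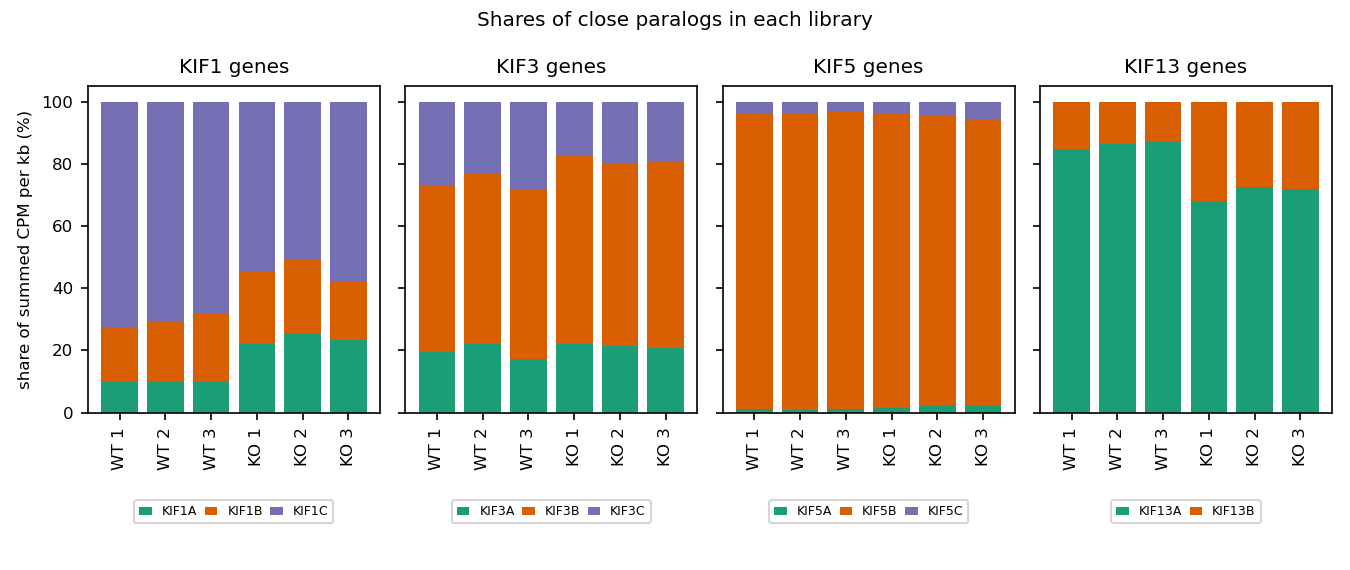
Share of each close paralog in the summed CPM per kb of its group of genes, as stacked bars for each library (WT, p53 WT; KO, p53 KO). KIF1A made up 9.72% to 9.97% of the KIF1 genes in p53 WT and 21.9% to 25.4% in p53 KO, and KIF13B 13% to 15.2% and 27.3% to 31.8% of the KIF13 genes.

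The make-up of some paralog groups differed between the genotypes. Per kilobase, KIF1A was 9.84% ± 0.126 of the KIF1 genes in p53 WT and 23.5% ± 1.80 in p53 KO, while KIF1C went from 70.5% ± 2.1 to 54.6% ± 3.71 (SD, n = 3). KIF13B went from 13.9% ± 1.2 to 29% ± 2.45 of the KIF13 pair, and KIF3C from 26.2% ± 2.74 to 18.9% ± 1.45 of the KIF3 genes (SD, n = 3). The groups did not overlap for any of these shares. KIF5B stayed at 92.5% or more of the KIF5 genes in all libraries, so the rise of KIF5A and KIF5C was a rise of minor members. Shares are descriptions with no test, and they rest on 1 transcript length per gene.

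KIFC2 and KIFC3, of the kinesin-14 class whose motors move towards minus ends, went opposite ways. KIFC2, known from neuronal dendrites, had 21.8, 23.6 and 22.4 CPM in p53 WT and 8.25, 11.3 and 8.62 CPM in p53 KO, with a wide gap between the groups. KIFC2 fell by 1.27 on the log2 scale (SE 0.16, adjusted p = 5.67e-05 by edgeR), the largest decrease among the members. In GENCODE it shares 791 exon bases with FOXH1 on the other strand, and FOXH1 was also lower (-0.87, adjusted p = 0.0141 by edgeR). Without a known strand setting for the count, reads of this pair cannot be told apart. KIFC3, a motor at adherens junctions and of apical transport, had 100, 83.3 and 85.9 CPM against 120, 109 and 127 CPM. It rose by 0.40 on the log2 scale (adjusted p = 0.0125 by edgeR), yet its neighbours on chromosome 16 had a median of 0.76. With that taken off KIFC3 was called lower (-0.36, adjusted p = 0.0281 by edgeR). For KIFC3 too this last p takes the median as a fixed value. Leaving out p53 WT replicate 2 (0.35) or 3 (0.36) also ended its call. GENCODE places 441 exon bases of an antisense RNA and 97 of another noncoding RNA opposite KIFC3.

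The other transport members did not pass. KIF21A and KIF21B, which regulate microtubule growth, had -0.16 and 0.42 on the log2 scale. KIF21B passed without p53 KO replicate 3 (0.57). KIF16B, an endosome motor, had -0.03, and KIF17, a motor of dendrites and cilia, had 0.34. Several of the members that rose are known from neurons, so the neuronal markers are given beside them. SYP, RBFOX3 and SNAP25 did not pass, MAP2 and TUBB3 fell by 1.32 and 0.75 on the log2 scale, and RBFOX3 was below 1 CPM on average in both groups. The 5 markers summed to 152 to 179 CPM in p53 WT and 96.9 to 118 CPM in p53 KO.

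**Figure D4:**
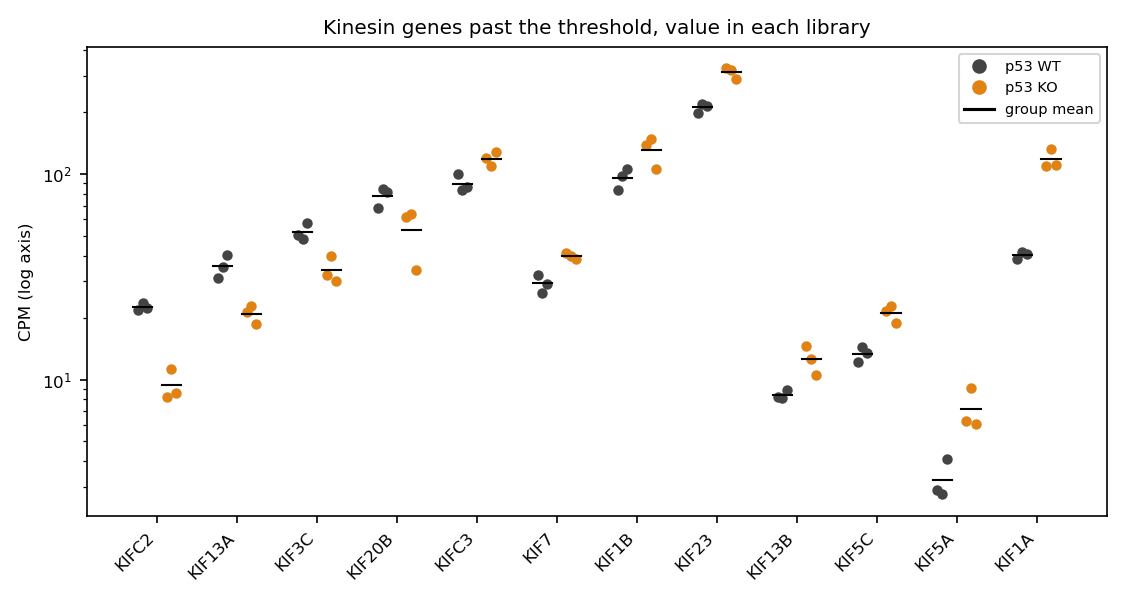
CPM (log axis) in each library of the 12 kinesin genes past the threshold, ordered by log2 fold change; grey points are p53 WT, orange points p53 KO, and the short line is the group mean. The groups are apart for each gene except KIF1B, where p53 KO replicate 3 lies at 106 CPM, level with the highest p53 WT library.

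Kinesin light chains and cargo adaptors were called in both directions. Of 11 genes 3 rose and 5 fell (72.7% called, beside 26.5% of all genes), with a median log2 fold change of -0.18. KLC1, the main light chain of kinesin-1, had 86.8 ± 5.33 CPM in p53 WT and 42.8 ± 1.48 CPM in p53 KO (SD, n = 3) and fell by 1.02 on the log2 scale. It lies on chromosome 14 among lower neighbours, and had -0.11 (adjusted p = 0.503 by edgeR) with the local median taken off. TRAK2 and TRAK1, which tether mitochondria to kinesin-1, fell by 0.71 and 0.48 on the log2 scale. Both kept their calls with the local median taken off, the only adaptors of the 11 called then. Of all 22352 genes, of which 17141 had a local median to take off, 2118 were called higher and 2289 lower in that setting. TRAK1 was named after its values were seen. MAPK8IP3, a scaffold on axonal cargo, and KIAA1279, also called KBP, which holds certain kinesins off microtubules, fell by 0.61 and 0.61, and lost their calls with the local median taken off.

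KIF7, a regulator of Hedgehog signalling at the cilium tip, was the cilium or signalling kinesin called. It had 32.4, 26.5 and 29.1 CPM in p53 WT and 41.4, 39.7 and 38.6 CPM in p53 KO, with no overlap, and rose by 0.44 on the log2 scale (SE 0.12, adjusted p = 0.0131 by edgeR). Its neighbours on chromosome 15 had a median of 0.63, and with that taken off KIF7 had -0.18 (adjusted p = 0.344 by edgeR). Leaving out p53 WT replicate 2 (0.37) or 3 (0.43) also ended the call of KIF7. GENCODE gives 589 exon bases shared with TICRR on the other strand, and TICRR was higher too (0.80, adjusted p = 0.000797 by edgeR). KIF24, a centriole kinesin, KIF9 and KIF27 had -0.28, 0.26 and -0.53, and KIF6 was below 1 CPM on average in both groups.

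Of the other kinesins none passed among 3 tested (0 called by edgeR, 1 at an unadjusted p under 0.05). KIF2A, a microtubule depolymeriser with roles in spindles and neurons, had 85.1, 90.6 and 87.5 CPM against 92.4, 99.4 and 79.1 CPM (log2 fold change 0.04, 95% interval -0.19 to 0.27). In GENCODE KIF2A shares 428 exon bases with the protein-coding gene IPO11 on the same strand. Some exon overlaps of other members are not reported here. KIF26A, a kinesin linked to growth factor signalling, had 12.0, 14.5 and 11.9 CPM against 10.6, 8.96 and 4.51 CPM, with no overlap. It did not pass by edgeR (-0.65, adjusted p = 0.0745) and was called lower by DESeq2, and its neighbours on chromosome 14 had a median of -0.95. The members not tested were KIF2B with 0 counts in all libraries, KIF12 with 1, KIF19 with 11 and KIF25 with 17 counts over the 6 libraries.

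**Figure D5:**
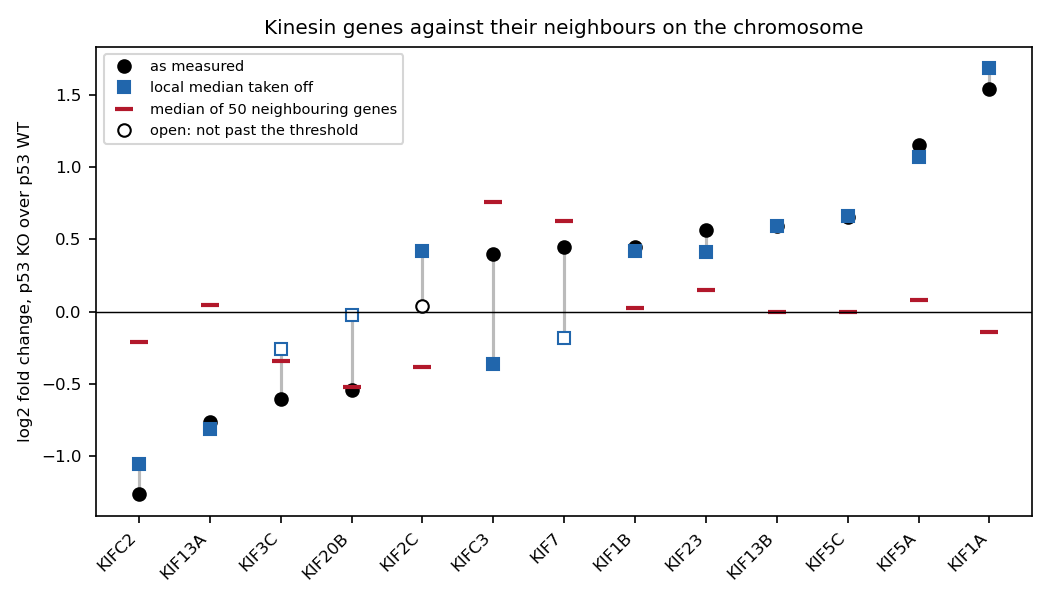
Log2 fold change, p53 KO over p53 WT, of 13 kinesin genes as measured (black circles) and with the local median taken off (blue squares), beside the median of 50 neighbouring genes (red bars); open symbols are not past the threshold. KIF20B, KIF3C and KIF7 lose their call, KIFC3 changes from 0.40 to -0.36, and KIF2C is called at 0.42.

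With the median of the 50 nearest expressed genes taken off, 7 kinesins were called higher and 3 lower, and 6 of the 8 higher and 2 of the 4 lower members kept call and direction. Those 8 were KIF1A, KIF5A, KIF5C, KIF13B, KIF1B, KIF23, KIF13A and KIFC2. Calls in this setting take each median as fixed, with no allowance for the spread of the neighbours. In the authors' deposited table, 40 kinesins were listed and 0 were marked as intersecting a p53 cistrome, a mark carried by 124 of 35987 genes, or 0.345%. Of the 38 members tested here, the authors' deposited table gave 9 an adjusted p under 0.05, all of them among the 12 called here. Over all genes with an adjusted p the authors' deposited table had 5029 of 24122 under 0.05, or 20.8%. KIF1B, KIF13B and KIF20B were the members called here and not there, with adjusted p of 0.390, 0.103 and 0.0980 in the authors' deposited table.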

How the data were processed

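Polyadenylated RNA was sequenced from 3 p53 WT and 3 p53 KO libraries, grouped and numbered by their titles. The authors deposited raw counts per gene symbol. The submitters' processing notes name fastp 0.21.0, HISAT2 2.1.0, DESeq2 1.3.6 and GRCh37; the counter, its annotation and its strand setting were not given in the sources used here. The authors' deposited comparison table lists for each gene the mean normalised count (a signal over all libraries), the log2 fold change, the test score, and a p-value before and after adjustment. Its fold change and test score have opposite signs in all 35987 genes, and from the counts its direction was taken to be p53 WT relative to p53 KO.

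Genes passing filterByExpr (22352) were tested in edgeR 4.0.16 under R 4.3.3, with TMM factors and a robust quasi-likelihood F-test, adjusted by Benjamini-Hochberg. SE was taken as log2 fold change over root F. The local median is that of 50 neighbours among 12095 protein-coding genes of at least 2 CPM. Their order was that of RefSeq GRCh38.p14, another build than the authors'. Of the 22352 genes 17141 had a local median, and nothing was taken off the others. The median entered the fit as a fixed value, so p-values with it taken off ignore the spread of the neighbours. The fit, with and without a known local shift to take off, was tested on simulated data. Without the shift it called 39.7% of 63 genes with a true log2 change of 0.6. It called 80% of 70 genes at 1 and 91% of 67 genes at 1.5, with 8 false calls among 21575 genes tested. Missing the threshold therefore does not show that a member is unchanged. Floors of 3 counts cover counting error only, as these reads carry no molecular identifiers.

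Members, roles and lists were chosen with earlier results of these data known. Values per library were to be given for called members, up to 8 per role and direction, and for KIF11, KIF23, KIF20A, KIF2C, KIFC1, KIF4A, KIF5B, KIF1B, KIF3A and KIF2A. In every other list up to 4 called genes of smallest adjusted p were to be named. The lists were spindle partners, adaptors, dynein and dynactin, proliferation, and markers of 5 cell types (osteosarcoma or mesenchymal, epithelial, leukocyte, endothelial and neuronal, where PECAM1 was not matched). The alternatives tried were factors by RLE, by upper quartile or none, no low-count filter, 1 CPM in 3 libraries, DESeq2 1.42.0, limma-voom (limma 3.58.1), an adjusted p under 0.01, a replicate block, the local median, and leaving out each library. Some genes of the lists are not reported here.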

Additional observations from a re-analysis of the deposited data

How the results depend on the processing

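Under each of the 16 other settings KIF1A, KIF5A, KIF5C, KIF13A, KIFC2 and KIF23 were called in the same direction, and KIF3C under all but the local median. At an adjusted p under 0.01, all genes gave 1659 higher and 2099 lower, and 4 kinesins were higher, 3 of them transport, with 0 mitotic lower and 0 cilium or signalling higher. Mitotic members called lower were also 0 with upper-quartile factors, with no composition factors and with the local median taken off, and those called higher were 2 under limma-voom and with the local median taken off. Cilium or signalling members called higher were 0 with the local median taken off. Their median log2 fold change was -0.0229 without the filter, 0.0004 with 1 CPM in 3 libraries and 0.1254 with the local median taken off. In the other role 1 member, KIF26A, was called lower without the filter, under DESeq2 and with the replicate block. With 1 library left out at a time, the higher calls ranged from 4 to 11 for kinesins, 3 to 8 for transport, 1 to 2 for mitotic and 0 to 1 for cilium or signalling members, and the lower calls from 0 to 1 for mitotic and 0 to 1 for other members. Over the same fits all genes had 1872 to 2857 higher and 2288 to 3202 lower calls.

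With the local median taken off, the sign turned for KIFC3 (-0.36), KIF7 (-0.18), KIF11 (0.21), KIF16B (0.19), KIF18B (-0.0452), KIF21A (0.0817), KIF24 (0.13), KIF26A (0.30), KIF2A (-0.0603) and KIF3B (-0.12), of which only KIFC3 and KIF7 had been called; the cause was not tested. Members near 0 also turned: KIF16B (0.0032) and KIF3A (0.0201) with upper-quartile factors, KIF3A with no composition factors (0.0130) and limma-voom (0.0028), and KIF3B without the filter (-0.0125) and with the replicate block (-0.0012). With 1 library left out, KIF15 ranged from -0.22 to 0.0615, KIF16B from -0.20 to 0.11, KIF2A from -0.0359 to 0.14, KIF3A from -0.0907 to 0.12 and KIF3B from -0.0709 to 0.11.

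The main fit does not pair libraries by replicate number. Deviations of libraries with the same number correlated at -0.00542, 0.0818 and -0.132, and not every library correlated best with its own number. Deviations within a group of 3 sum to 0, so these values cannot decide whether libraries of equal number were prepared together. Total counts fell from replicate 1 to replicate 3 in both groups. With the replicate block 12 kinesins were called, 7 higher and 5 lower, with KIF13B lost and KIF26A gained. Of all genes 2297 were then called higher and 2862 lower. At the depth of the shallowest library, 3 counts are 0.150 CPM, so members below 1 CPM such as KIF6 and KIF26B have wide intervals.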

Other observations

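Cytoplasmic dynein and its activator dynactin carry cargo the opposite way to most kinesins. Of 20 of their genes 3 were higher and 2 lower in p53 KO (25% called, near the 26.5% of all genes), with a median log2 fold change of 0.07. DYNC1H1, the heavy chain that holds the motor, had 535 ± 71.7 CPM in p53 WT and 258 ± 35.5 CPM in p53 KO (SD, n = 3) and fell by 1.05 on the log2 scale. It lies on chromosome 14 like KLC1, and had -0.14 (adjusted p = 0.465 by edgeR) with the local median taken off. DYNLT1, a light chain, rose by 0.41 and CAPZA1, a capping subunit of dynactin, fell by 0.33 on the log2 scale. With the local median taken off both lost their calls, DYNLT1 at 0.34 (adjusted p = 0.0607 by edgeR) and CAPZA1 at 0.05 (adjusted p = 0.801 by edgeR). DYNC1LI2, a light intermediate chain on chromosome 16, had 0.34. It was called lower with the local median taken off (-0.38, adjusted p = 0.0197 by edgeR), as KIFC3 on the same chromosome was. That p takes the local median of 0.72 as a fixed value. DYNLL2, named after its values were seen, rose by 0.30 and kept its call (0.31). ACTR10 and DCTN1 were called only with the local median taken off. ACTR10 turned from -0.28, with all p53 KO libraries below all p53 WT libraries, to 0.37, and DCTN1 went from -0.21 to -0.34.

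Over the 38 tested kinesins, p53 KO replicate 3 was lower than the other replicates of its group, with a median log2 difference of -0.23, and p53 WT replicate 1 was the lowest of its group for 18 members. Across these members, which share a library and its depth, the deviation of p53 KO replicate 3 had Spearman's rho of -0.407 with transcript length, and that of p53 WT replicate 1 had -0.428. These are descriptions of the libraries, and their part in the calls was not tested.

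Of the epithelial markers 1 of 6 was called, KRT8, which rose by 0.75 on the log2 scale, and the list summed to 490 to 548 CPM in p53 WT and 576 to 701 CPM in p53 KO. Of the leukocyte markers 1 of 5 had enough counts to be tested, and of the matched endothelial markers 2 of 3. None of these was called by edgeR (0 at an unadjusted p under 0.05). PTPRC, the leukocyte marker tested, had -0.66 on the log2 scale, with all p53 KO libraries below all p53 WT libraries. The leukocyte and endothelial lists summed to at most 3.29 CPM in any library.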
